A study of Mus musculus with 8 samples.

Results

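The genes described here are 34 genes of uptake, brush border, digestion and regulation, listed for extraembryonic and definitive endoderm. They are 7 transcription factors, 4 further regulators and junction genes, 4 genes of receptor-mediated uptake, 7 genes of the brush border and apical surface, 3 genes of sugar handling, 2 of lipid loading, 4 proteases and 3 genes of other kinds. They were chosen by name, leaving out the secreted plasma proteins of the same tissues, and then by level: 31 of the 34 held 10 or more in 2 or more of the 8 libraries, out of 16623 of 52281 named loci that did. Cdhr5, Slc5a1 and Fbp1 did not reach it, and the members nearest to that limit on the other side were Onecut1, with values from 10.1 to 44.9, and Pgc, which reached 10 in 4 libraries. All of the genes are protein-coding, and 7 of them lie on the X chromosome (Cited1, Rhox5, Amot, Gjb1, S100g, Gpc3 and Trap1a).

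RNA-seq was done on mouse embryoid bodies (EBs, aggregates of differentiating embryonic stem cells) at day 9, on a C57BL/6 strain background, in 4 groups of 2 libraries. The first pair of groups was wild type (PR16wt-EB, the Prdm16 control) and PRDM16 KO (PR16KO-EB, the Prdm16 knockout). The second pair was wild type (PR16EXON4wt-EB, the PR domain control) and PR domain KO (PR16EXON4KO-EB, the PR domain knockout), which the sample names place at exon 4. Prdm16 encodes a zinc finger transcription regulator with an N-terminal PR domain, related to histone methyltransferase domains. The comparisons ask which genes change when the whole protein or its PR domain is disrupted, each against its own control. The labels do not say whether a group is 1 clone, whether libraries came from separate cultures, or how the knockouts were made. The p-values therefore reflect nothing beyond how far apart these libraries lie, judged against a spread pooled in part over all loci. That spread may be technical.

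The visceral endoderm is the epithelium that covers the early mouse embryo and later lines the yolk sac, and a similar layer forms on the outside of embryoid bodies. It takes up proteins, vitamins, lipids and iron through an apical surface of microvilli, chiefly with the receptors cubilin (Cubn) and megalin (Lrp2), the cubilin anchor amnionless (Amn) and the clathrin adaptor Dab2, and it breaks the cargo down in lysosomes. Its identity depends on transcription factors of the HNF4, FOXA and GATA families. Kidney proximal tubule, small intestine and liver use many of the same genes.

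Promoter windows (250 bases before to 50 after an annotated start, 300 bases) were available from RefSeq for 31 of the 34 genes, 44 windows in all, on GRCm38.p6. Soat2, Pga5 and Ctsh had no entry. The windows were searched on both strands for 5 short motifs, and no matches overlapped each other. The forkhead motif TGTTTAC was found in windows of Foxa1, Cdx2 and S100g (3 of 44 windows, against 3.65% of all 32851 windows of the table). The HNF4 motif CAAAGTCCA was found in windows of Pdzk1 and Muc13 (2 of 44, against 0.475%). The GATA motif AGATAA lay in windows of Hnf4a, Foxa2, Dab2, Dpp4 and Fbp1 (5 of 44, against 11.2%), and the HNF1 core GTTAAT in windows of Hnf4a, Foxa2, Cdx2, Gjb1, Dab2, Cdhr2 and Muc13 (7 of 44, against 7.10%). The CDX motif TTTATGG was found in 0 of 44 windows, against 2.75% of all. Capitals mark these matches in the 6 windows below, which set Hnf4a and Cubn beside 4 apical genes: Muc13 and Dpp4, which rose in both knockouts, Pdzk1, which passed in the Prdm16 knockout, and Cdhr2, which was called in opposite directions. A match is a run of letters and not a binding site.
Hnf4a, chr2:163546905-163547204, plus strand: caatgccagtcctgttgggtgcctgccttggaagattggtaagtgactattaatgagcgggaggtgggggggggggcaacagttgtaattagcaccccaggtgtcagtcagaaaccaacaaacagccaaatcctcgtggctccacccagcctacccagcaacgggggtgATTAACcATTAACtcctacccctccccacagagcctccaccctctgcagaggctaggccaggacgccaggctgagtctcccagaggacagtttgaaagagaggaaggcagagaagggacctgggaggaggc
Cubn, chr2:13491827-13492126, minus strand: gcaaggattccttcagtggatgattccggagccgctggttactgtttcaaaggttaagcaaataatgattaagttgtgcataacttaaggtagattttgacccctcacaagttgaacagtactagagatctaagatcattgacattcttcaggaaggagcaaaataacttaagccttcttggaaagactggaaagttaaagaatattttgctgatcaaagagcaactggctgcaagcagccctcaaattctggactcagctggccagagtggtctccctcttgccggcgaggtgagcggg
Cdhr2, chr13:54701213-54701512, plus strand: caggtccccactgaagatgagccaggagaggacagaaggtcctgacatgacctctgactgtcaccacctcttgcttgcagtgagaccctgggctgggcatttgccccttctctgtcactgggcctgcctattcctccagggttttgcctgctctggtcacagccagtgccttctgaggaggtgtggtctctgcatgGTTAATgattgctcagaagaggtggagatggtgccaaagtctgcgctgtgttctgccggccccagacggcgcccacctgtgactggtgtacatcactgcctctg
Pdzk1, chr3:96829815-96830114, plus strand: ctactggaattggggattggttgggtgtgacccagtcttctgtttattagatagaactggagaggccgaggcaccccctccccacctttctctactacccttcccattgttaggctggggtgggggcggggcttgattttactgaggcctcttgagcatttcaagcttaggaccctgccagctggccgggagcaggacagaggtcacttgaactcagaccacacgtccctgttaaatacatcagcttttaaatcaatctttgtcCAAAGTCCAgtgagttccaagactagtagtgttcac
Muc13, chr16:33794239-33794538, plus strand: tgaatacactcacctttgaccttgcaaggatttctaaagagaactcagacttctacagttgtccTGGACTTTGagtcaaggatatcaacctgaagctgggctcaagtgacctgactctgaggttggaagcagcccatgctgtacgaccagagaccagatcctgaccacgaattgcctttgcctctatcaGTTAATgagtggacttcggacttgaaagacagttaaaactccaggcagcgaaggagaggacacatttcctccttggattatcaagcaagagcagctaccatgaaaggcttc
Dpp4, chr2:62412182-62412481, minus strand: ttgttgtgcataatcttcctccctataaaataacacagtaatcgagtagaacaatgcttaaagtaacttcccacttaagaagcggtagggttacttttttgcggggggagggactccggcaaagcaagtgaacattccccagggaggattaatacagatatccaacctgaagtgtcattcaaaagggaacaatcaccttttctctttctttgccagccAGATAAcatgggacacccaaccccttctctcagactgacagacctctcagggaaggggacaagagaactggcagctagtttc
The HNF4 matches were in Pdzk1 and, on the opposite strand, in Muc13. The window of Hnf4a held 2 copies of the HNF1 core next to each other, both on the opposite strand, and the Cubn window held none of the 5 motifs.

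The libraries held between 6273789 and 9086885 fragments on named loci. Values are given as normalised fragments, the fragments of a locus after scaling by 1 factor for each library. Prdm16 itself was low in every library, at 24.4 and 26.3 in its control, 11.2 and 1.1 in the matching knockout, 44.6 and 22.7 in the PR domain control and 23.3 and 15.7 in the PR domain knockout, where fragments from the rest of the gene do not check a change limited to exon 4. The Prdm16 knockout stood apart in Y-linked genes: Ddx3y was at 0 and 0 there, and at 492 and 513 in its control. In the 4 PR domain libraries Ddx3y was at 989 to 1148. The Prdm16 control also stood below those libraries in Kdm5d, at 64.7 and 83.7 against 471 to 538. Xist stayed between 2.48 and 8.46 in all 8 libraries. What part these differences in Y-linked genes have in any result below was not tested. The 626 X-linked loci tested had a median log2 change of 0.03 in the Prdm16 knockout, against -0.03 for autosomal loci. Of 10 hepatocyte markers Tat, G6pc, Cyp2e1 and Cyp3a11 were at 0 in every library while Tdo2 was at 48.5 to 143. Of 11 kidney tubule markers Slc34a1 and Kap were at 0 in every library, while 4 others passed the filter. All 9 secreted visceral endoderm markers passed the filter, among them Afp, Ttr and Apoa1, although Alb reached 10 in the PR domain knockout alone (17.1 and 13.2) and is also a hepatocyte marker.

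Most of these genes were higher in both knockouts than in the matching controls. Of the 31 genes tested, 24 were higher in the Prdm16 knockout, where 18.0% of all loci were called higher, and 3 were lower, where 21.1% were called lower. In the PR domain knockout, 22 were higher against 8.48% of all loci, and 2 were lower against 10.7%. A call here is a Benjamini-Hochberg adjusted p below 0.05 over all 16623 loci from limma, fitted on log2(value + 1), a scale that understates the change of low genes. Of all calls, 45.9% were higher in the Prdm16 knockout, as were 44.2% in the PR domain knockout, but that balance depended on the scaling. The first share was 55.0% with TMM and 39.3% with total-fragment scaling, and the second was 54.4% with DESeq2 size factors. The median log2 change of the 31 genes was 0.80 in the Prdm16 knockout against 0.70 in the PR domain knockout, while the medians over all loci were -0.03 and -0.03. With Pga5 set at its bound and Slc2a2 and Pgc left out, for want of fragments, the second median was 0.70 over 29 genes. Called higher in both knockouts were 17 genes, against 5.43% of all loci, and called in opposite directions were 3, Cdhr2, Pga5 and Trap1a, against 1.28%. In bulk RNA, more cells of a type and more RNA per cell cannot be told apart. Of the 31, Amn, Slc2a2, Pga5, Pgc and Trap1a stayed under 10 in all 4 PR domain libraries. Gjb1 and Cdhr2 reached 10 in only 1 PR domain library each. These genes entered the test only through the Prdm16 libraries, so a difference between the 2 sets was built into their choice.

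**Figure D1:**
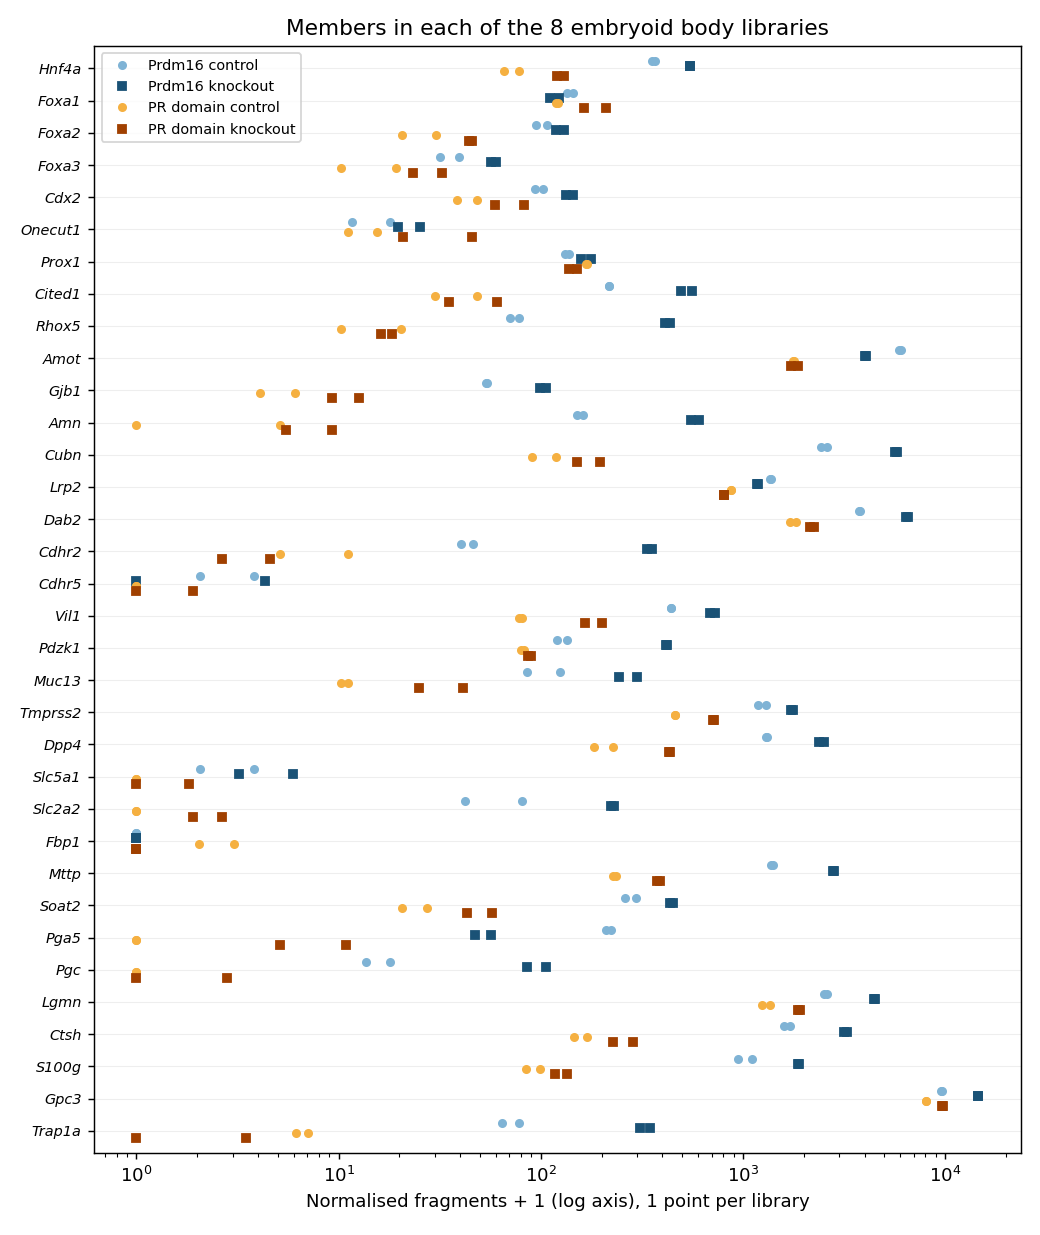
Normalised fragments plus 1 (log axis) of each of the 34 genes, 1 point per library, for the Prdm16 control and knockout and the PR domain control and knockout. For Cubn the Prdm16 knockout libraries (5653 and 5765) lie to the right and the PR domain control libraries (89.2 and 119) to the left, with the other groups in between.

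The larger contrast lay between the 2 wild-type sets. In the PR domain control, 28 of the 31 genes were lower than in the Prdm16 control, against 16.7% of all loci, and 1 was higher (Prox1), against 16.3%. At least 4-fold lower were 19 of them, against 1.51% of all loci. The median log2 difference was -2.48 for the 31 genes, unchanged when Slc2a2, Pga5 and Pgc were set at their bounds, and -0.00 over all loci. Without the 5 genes under 10 in all 4 PR domain libraries, 23 of 26 were lower, 14 of them at least 4-fold, with a median of -2.17. Gjb1 and Cdhr2, which also entered only through the Prdm16 libraries, are still counted in the 26 and in the 14. Both control sets carry the label wild type, and the labels give no date or culture for either, so set, clone and culture cannot be told apart. For 18 of the 31 genes the levels of the 4 groups stood in one order, with no overlap between libraries: the Prdm16 knockout was highest, then its control, then the PR domain knockout, then the PR domain control. Of all loci tested, 2.02% did so. Amn, Slc2a2 and Gjb1 are among the 18, and for them the filter in part built in Prdm16 groups above PR domain groups. Both Prdm16 knockout libraries lay above all 4 control libraries for 26 genes, against 19.3% of all loci. They lay below all 4 for 0 genes, against 23.4%. The 26 include Amn, Slc2a2, Pgc, Trap1a, Cdhr2 and Gjb1, which passed the filter only through the Prdm16 libraries. For the PR domain knockout the counts were 3 above (Foxa1, Onecut1 and Gpc3), against 15.7%, and 3 below (Lrp2, Cdhr2 and Trap1a), against 20.6%. Of those below, Cdhr2 and Trap1a also passed the filter only through the Prdm16 libraries.

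**Figure D2:**
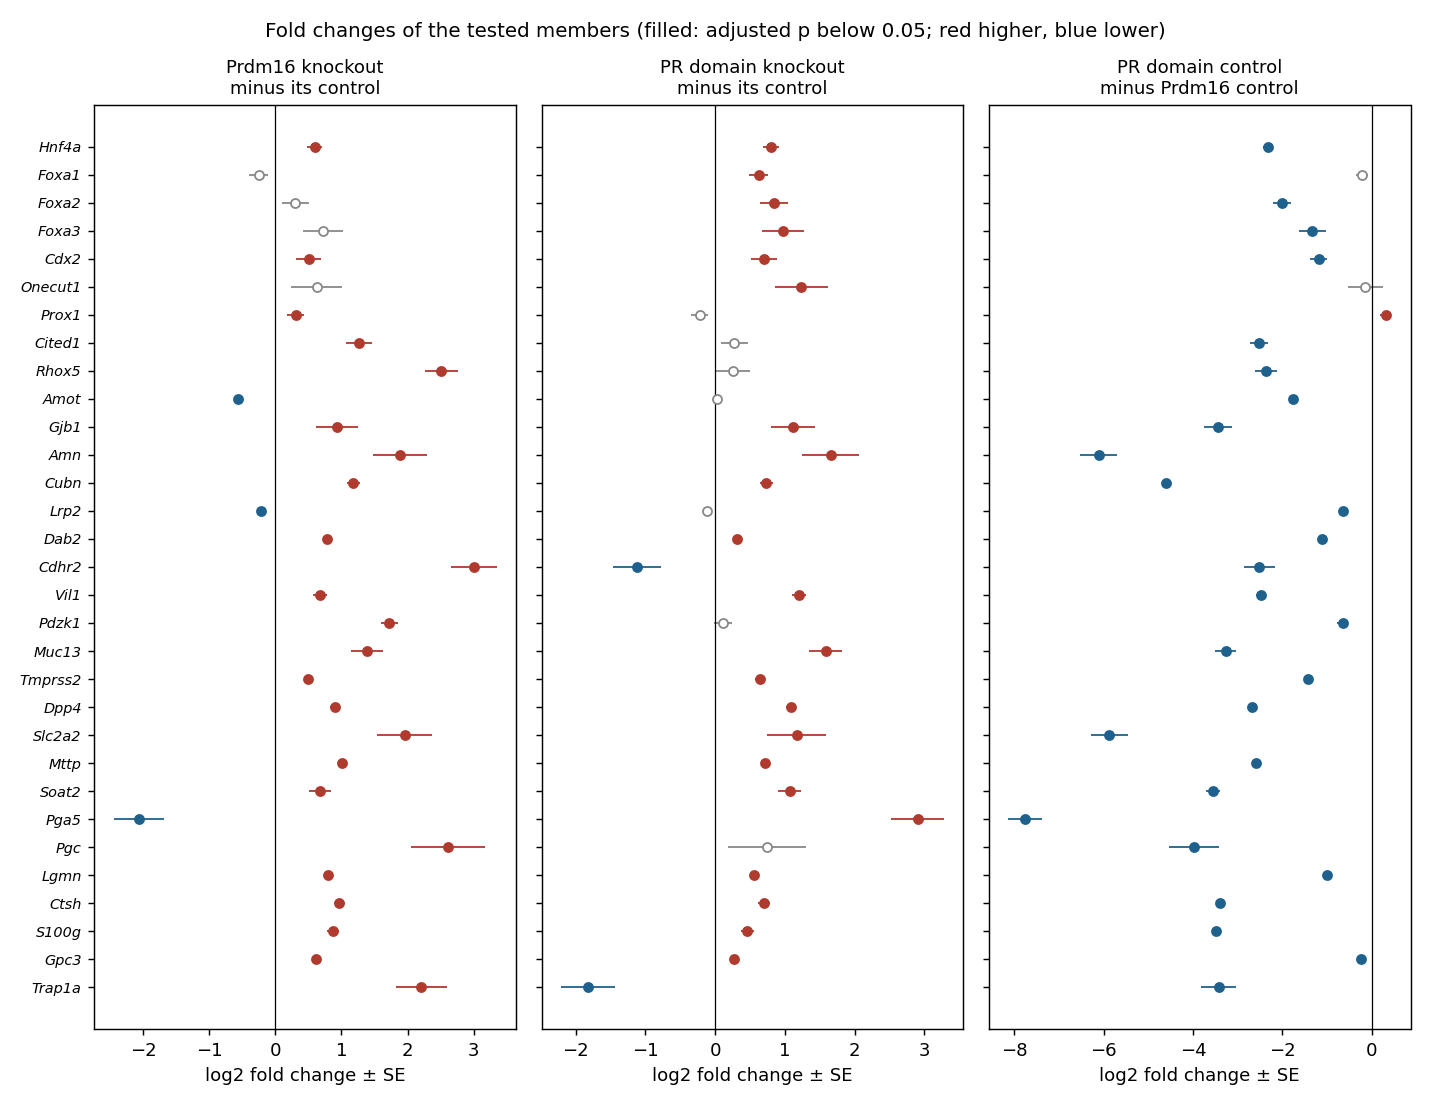
Log2 fold change with its standard error for the 31 genes tested, in the Prdm16 knockout, the PR domain knockout and the control sets (PR domain control relative to Prdm16 control). Filled points passed the test, red for higher and blue for lower. Slc2a2, Pga5 and Pgc were at 0 in the PR domain control, so their points in the other panels than the Prdm16 knockout depend on the 1 added to each value.

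Among the transcription factors, Hnf4a, a nuclear receptor required for visceral endoderm function, was at 353 and 369 normalised fragments in the Prdm16 control, 546 and 546 in the matching knockout, 64.9 and 77.4 in the PR domain control and 119 and 129 in the PR domain knockout. No groups overlapped. It rose 1.51-fold in the Prdm16 knockout (adjusted p = 7.0e-05, limma) and 1.74-fold in the PR domain knockout (adjusted p = 2.1e-06), and the PR domain control was 5.03-fold lower than the Prdm16 control (adjusted p = 6.1e-17). The difference between its 2 knockout effects, -0.20 ± 0.16 (SE) on the log2 scale, did not pass (adjusted p = 0.43). On FPKM, which scales by transcript length, the Prdm16 knockout call was lost (adjusted p = 0.081, the highest of its 22 alternatives). Hnf4a lies on chromosome 2 at 163506808 to 163572910 (GRCm38, plus strand).

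The 3 forkhead factors, which open chromatin at endoderm enhancers, did not move alike. Foxa1 stood at 134 and 144 in the Prdm16 control, 123 and 110 in its knockout, 119 and 121 in the PR domain control and 163 and 209 in the PR domain knockout. Its Prdm16 knockout libraries lay below their controls without passing (log2 change -0.25 ± 0.14, SE, adjusted p = 0.15), and it was 1.54-fold higher in the PR domain knockout (adjusted p = 0.0011), where both libraries lay above every other library. The difference between those effects passed (-0.88 ± 0.20, adjusted p = 0.0018). Foxa2 had 106 and 94.1 in the Prdm16 control, 129 and 118 in its knockout, 29.4 and 19.6 in the PR domain control and 44.9 and 43.0 in the PR domain knockout, so that each knockout lay above its own control. The second difference passed, at 1.79-fold (adjusted p = 0.0032), and the first did not, at 1.23-fold (adjusted p = 0.26). Foxa3 was lowest of the 3, at 30.7 and 38.6, 55.8 and 59.4, 18.3 and 9.29, and 22.4 and 31.4 in the same order of groups. It passed in the PR domain knockout (1.96-fold, adjusted p = 0.022) and missed in the Prdm16 knockout (1.65-fold, adjusted p = 0.058, and 0.012 to 0.28 over 22 alternatives), where leaving out PR domain control replicate 1 or 2 brought it past the threshold at the same log2 change of 0.73. The PR domain knockout calls of Foxa1 and Foxa2 each fell with 1 library left out, to a log2 change of 0.44 for Foxa1 without PR domain knockout replicate 2 and 0.56 for Foxa2 without PR domain control replicate 2. That of Foxa3 was lost without either of those libraries, at 0.74 and 0.52. Over 22 alternatives the adjusted p of these PR domain calls ran up to 0.12, 0.21 and 0.35.

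Cdx2, a caudal homeobox factor of extraembryonic and gut lineages, stood at 102 and 93.1 in the Prdm16 control and 133 and 144 in its knockout. In the PR domain pair it had 37.5 and 47.5 in the control and 58.3 and 81.9 in the knockout. Each knockout lay above its control, 1.42-fold (adjusted p = 0.031) and 1.62-fold (adjusted p = 0.0064, limma). The first call failed with any 1 of the 4 libraries of that pair left out, with a log2 change between 0.44 and 0.57 and adjusted p up to 0.16, and the second without PR domain control replicate 1 (0.53) or PR domain knockout replicate 2 (0.46). Over 22 alternatives the adjusted p ran up to 0.17 and 0.19. Prox1, a homeobox factor of liver and lymphatic endothelium, had 131 and 137 in the Prdm16 control, 158 and 176 in its knockout, 168 and 167 in the PR domain control and 151 and 137 in the PR domain knockout. It was 1.24-fold higher in the Prdm16 knockout (adjusted p = 0.049) and 1.25-fold higher in the PR domain control than in the Prdm16 control (adjusted p = 0.048). Both calls sat at the threshold: the first held in 8 of 22 alternatives and the second in 10 of 22. With any 1 of 7 libraries left out (all but Prdm16 knockout replicate 1), the first had a log2 change of 0.23 to 0.34 and adjusted p of 0.052 to 0.27. The second failed with any 1 of the 6 libraries outside the Prdm16 knockout left out, at 0.29 to 0.35. Both PR domain knockout libraries lay below their controls without passing (log2 change -0.22 ± 0.12, adjusted p = 0.24). Onecut1 (HNF6) was read from a locus that it shares with Gm16551 and Gm20649, so its value belongs to no single gene. That locus had 10.6 and 16.9, 18.6 and 24.2, 10.1 and 14.4, and 44.9 and 19.9, and was 2.36-fold higher in the PR domain knockout (adjusted p = 0.020, and 0.0046 to 0.41 over 21 alternatives). Without PR domain knockout replicate 1 (log2 change 0.67) or PR domain control replicate 1 (1.00) that call was lost.

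Of the other regulators, Cited1 and Rhox5 rose further in the Prdm16 knockout than in the PR domain knockout. Cited1, a transcriptional coactivator, had 217 and 217 in the Prdm16 control, 557 and 491 in its knockout, 47.7 and 28.9 in the PR domain control and 34.1 and 59.6 in the PR domain knockout. It was 2.40-fold higher in the Prdm16 knockout (adjusted p = 5.2e-06), and the PR domain groups overlapped (log2 change 0.27 ± 0.20, SE, adjusted p = 0.38). Without PR domain control replicate 1 or PR domain knockout replicate 1, that second change passed, at 0.62 and 0.67, and its adjusted p was 0.025 to 0.87 over 22 alternatives. Rhox5, an X-linked homeobox gene of extraembryonic tissues, had 77.4 and 69.6, then 435 and 410, then 19.3 and 9.29, then 15.3 and 17.4 in the 4 groups. It rose 5.70-fold in the Prdm16 knockout (adjusted p = 1.2e-09, limma) and the PR domain knockout libraries fell between their 2 controls (adjusted p = 0.53). Leaving out PR domain control replicate 1 gave a change of 0.75 in the PR domain knockout that passed (adjusted p = 0.038, and up to 0.91 over 22 alternatives). The difference between the knockout effects was 0.99 ± 0.28 for Cited1 (adjusted p = 0.012) and 2.25 ± 0.34 for Rhox5 (adjusted p = 1.8e-05).

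Amot (angiomotin, a junction protein that binds YAP in the Hippo pathway) went the other way. It had 6056 and 5932 in the Prdm16 control, 4009 and 4063 in the matching knockout, 1765 and 1780 in the PR domain control and 1875 and 1722 in the PR domain knockout. It was 1.48-fold lower in the Prdm16 knockout (adjusted p = 5.7e-12), with no overlap, and the PR domain groups overlapped (log2 change 0.02 ± 0.04, adjusted p = 0.82). The PR domain control was 3.38-fold lower than the Prdm16 control. Gjb1, the gap junction protein connexin 32, had 53.0 and 52.7, then 98.0 and 106, then 5.07 and 3.10, then 11.7 and 8.27. It rose 1.91-fold (adjusted p = 0.020) and 2.17-fold (adjusted p = 0.011), the second from 8 fragments in the 2 control libraries to 23 in the knockout. The exact 95% interval of that ratio, for counting error only, was 1.04 to 6.25. Without any 1 of the 4 libraries of the pair the first call failed (log2 change 0.88 to 0.99), and the second failed without PR domain control replicate 2 (0.84) or PR domain knockout replicate 1 (0.89). Over 22 alternatives the adjusted p ran up to 0.11 and 0.22.

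Of the 4 genes of receptor-mediated uptake, 3 rose and 1 fell in the Prdm16 knockout, against 18.0% and 21.1% of all loci. In the PR domain knockout 3 rose, against 8.48%. Amn, among the 4, passed the filter only through the Prdm16 libraries. Cubn, the receptor for intrinsic factor with vitamin B12 and for many filtered or secreted proteins, had 2443 and 2598 in the Prdm16 control, 5653 and 5765 in the matching knockout, 89.2 and 119 in the PR domain control and 196 and 151 in the PR domain knockout. It rose 2.27-fold in the Prdm16 knockout (adjusted p = 2.8e-11) and 1.66-fold in the PR domain knockout (adjusted p = 7.4e-07, limma). The PR domain control was 24.3-fold lower than the Prdm16 control by fragments (203 against 5066, 95% interval 21.1 to 28.1). Cubn lies on chromosome 2 at 13276338 to 13491813, and Gm13270 overlaps its exons on the opposite strand.

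Amn, which carries cubilin to the apical membrane, had 161 and 150 in the Prdm16 control, 603 and 551 in the matching knockout, 0 and 4.13 in the PR domain control and 4.49 and 8.27 in the PR domain knockout. It was 3.69-fold higher in the Prdm16 knockout (adjusted p = 0.00045). The PR domain knockout call (adjusted p = 0.0034) rested on 15 fragments against 4, a ratio of 3.16 with a 95% interval of 1.00 to 13.1. It failed without PR domain control replicate 1 (log2 change 0.48) or PR domain knockout replicate 2 (1.28), and its adjusted p ran from 4.3e-08 to 0.79 over 22 alternatives. Between the control sets Amn was 76.0-fold lower (4 fragments against 312, 95% interval 29.4 to 281).

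Lrp2, the large endocytic receptor that works with cubilin, did not rise. Its values were 1377 and 1354 in the Prdm16 control, 1172 and 1186 in the matching knockout, 874 and 876 in the PR domain control and 807 and 806 in the PR domain knockout. Both knockouts lay under their controls with no overlap. The Prdm16 knockout was 1.16-fold lower (log2 change -0.21 ± 0.05, SE, adjusted p = 0.0023), while the PR domain knockout missed the threshold (-0.12 ± 0.05, adjusted p = 0.14). The first call was lost with the DESeq2 Wald test and on FPKM (adjusted p up to 0.22 over 22 alternatives). Lrp2 lies on chromosome 2 at 69424340 to 69586065. Compared per transcript length, as FPKM, Lrp2 (8.41 and 8.51) stood under Amn (44.0 and 40.2) and Cubn (56.0 and 57.1) in the Prdm16 knockout. For the PR domain control, Lrp2 (8.01 and 6.29) stood over Cubn (0.883 and 1.16) and Amn (0 and 0.767). In the Prdm16 control Cubn (24.2 and 25.7) was highest, and Lrp2 (9.98 and 11.3) and Amn (11.8 and 11.2) overlapped.

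Dab2, the adaptor that links these receptors to clathrin, had 3770 and 3819, then 6435 and 6594, then 1835 and 1703, then 2254 and 2159 in the 4 groups, with no overlap. It rose 1.72-fold (adjusted p = 3.5e-15) and 1.25-fold (adjusted p = 1.0e-06), and the difference between these effects passed (log2 0.46 ± 0.06, adjusted p = 1.5e-06). Dab2 is also made by macrophages, whose markers moved too, as given with the proteases.

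A list of 27 other genes of endocytosis and lysosomes was read beside these. In the Prdm16 knockout 17 were higher and 2 lower (18.0% and 21.1% of all loci), with a median log2 change of 0.30. In the PR domain knockout 11 were higher and 3 lower (8.48% and 10.7% of all loci), with a median of 0.13. Those with the smallest adjusted p in the Prdm16 knockout were the lysosomal proteases Ctsb (log2 change 0.75, adjusted p = 7.2e-17) and Ctsc (1.53, adjusted p = 9.0e-17) and the IgG carrier Fcgrt (1.78, adjusted p = 9.1e-17). In the PR domain knockout they were Ctsb (0.68, adjusted p = 1.7e-15), Ctsd, at a locus shared with other genes (0.48, adjusted p = 2.8e-11), and Fcgrt (0.82, adjusted p = 8.0e-09, limma). Ctsc (0.38, adjusted p = 0.00021) rose there too, and Ctsd (0.43, adjusted p = 8.5e-11) in the Prdm16 knockout. Ctsb and Fcgrt were higher in the PR domain control than in the Prdm16 control (0.66, adjusted p = 9.1e-16, and 1.02, adjusted p = 3.1e-11). The 13 macrophage markers moved in the same directions in these 3 comparisons, apart from 1 that did not pass in the Prdm16 knockout, and their part in the lysosome genes' changes was not tested.

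At the brush border, all 6 tested genes rose in the Prdm16 knockout, against 18.0% of all loci. In the PR domain knockout 4 rose and 1 fell, against 8.48% and 10.7%. Cdhr2, among the 6, passed the filter only through the Prdm16 libraries. Cdhr2, a protocadherin that ties the tips of neighbouring microvilli together, had 39.2 and 45.1 in the Prdm16 control, 334 and 354 in the matching knockout, 10.1 and 4.13 in the PR domain control and 3.59 and 1.65 in the PR domain knockout. It was 8.0-fold higher in the Prdm16 knockout (adjusted p = 3.1e-08, limma) and lower in the PR domain knockout (adjusted p = 0.020). That second call compared 6 fragments with 14, a ratio of 0.361 with a 95% interval of 0.114 to 0.999, and failed without PR domain control replicate 1 (log2 change -0.56) or PR domain knockout replicate 2 (-0.72). It also failed with edgeR, DESeq2 and limma-voom, its adjusted p running from 0.0011 to 0.62 over 22 alternatives. The difference between the knockout effects was 4.12 ± 0.49 (SE, adjusted p = 2.6e-07). Cdhr5, the partner of Cdhr2 in these tip links, stayed at or under 3.30 in every library and was not tested.

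Vil1 (villin), which bundles actin inside microvilli, had 440 and 442, then 723 and 688, then 77.1 and 79.5, then 165 and 200 in the 4 groups, with no overlap. It rose 1.60-fold in the Prdm16 knockout (adjusted p = 3.0e-06) and 2.31-fold in the PR domain knockout (adjusted p = 1.3e-10), and the second rise was the larger (difference of log2 effects -0.53 ± 0.14, adjusted p = 0.0096). Without PR domain knockout replicate 2 the difference was -0.39 and missed (adjusted p = 0.082, and up to 0.24 over 21 alternatives). Vil1 lies on chromosome 1 at 74409376 to 74435559, and exons of Usp37 overlap it on the other strand. Pdzk1, a scaffold for apical transporters, behaved otherwise. It had 120 and 134 in the Prdm16 control, 422 and 416 in the matching knockout, 79.1 and 81.5 in the PR domain control and 85.2 and 88.5 in the PR domain knockout. It was 3.29-fold higher in the Prdm16 knockout (adjusted p = 4.9e-12) and did not pass in the PR domain knockout (log2 change 0.11 ± 0.13, SE, adjusted p = 0.63). The difference of 1.61 ± 0.18 passed (adjusted p = 1.2e-07).

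Muc13, a membrane mucin, had 84.8 and 123, then 242 and 299, then 10.1 and 9.29, then 40.4 and 23.99. It rose 2.62-fold (adjusted p = 2.1e-05) and 3.0-fold (adjusted p = 6.1e-06), the second from 19 fragments to 74. Tmprss2, a membrane serine protease, had 1308 and 1188, then 1770 and 1725, then 462 and 458, then 719 and 713, and rose 1.40-fold and 1.56-fold. Dpp4, an apical peptidase, had 1303 and 1314, then 2382 and 2518, then 182 and 228, then 436 and 432. It rose 1.87-fold (adjusted p = 4.5e-11) and 2.13-fold (adjusted p = 2.0e-12, limma). For these 3 genes the groups stood in the common order with no overlap, and the difference between the knockout effects did not pass (log2 -0.20 ± 0.33, -0.15 ± 0.08 and -0.18 ± 0.11). Without PR domain control replicate 2 that of Dpp4 was -0.35 and passed (adjusted p = 0.016). On FPKM both knockout calls of Tmprss2 were lost (adjusted p = 0.066 and 0.12), as was the PR domain call of Muc13 (adjusted p = 0.15), each the highest value over 22 alternatives. The FPKM values of Dpp4 differed more between the 2 PR domain controls (5.65 and 17.4) than its fragments did, and on FPKM both of its knockout calls were lost (adjusted p = 0.42 and 0.36).

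From a list of 25 other brush border genes, 18 were tested. In the Prdm16 knockout 10 were higher and 2 lower (median log2 change 0.56), against 18.0% and 21.1% of all loci. In the PR domain knockout 10 were higher and 1 lower (median 0.25), against 8.48% and 10.7%. The actin bundler Pls1 rose in both knockouts (1.40, adjusted p = 1.8e-11, and 0.55, adjusted p = 0.00043), as did the actin regulator Eps8 (1.21, adjusted p = 4.2e-11, and 0.48, adjusted p = 0.00068). So did the zinc carrier Slc39a4 (0.78, adjusted p = 7.3e-06, and 1.20, adjusted p = 9.9e-09) and the aminopeptidase Enpep (1.297, adjusted p = 1.3e-06, and 1.21, adjusted p = 9.1e-06). The peptidase Mme fell in both (-1.96, adjusted p = 1.5e-12, and -1.03, adjusted p = 1.2e-06, limma).

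Sugar handling was represented by 1 expressed gene. Slc2a2 (GLUT2), the glucose carrier of liver and basolateral gut membrane, had 41.3 and 79.9 in the Prdm16 control, 231 and 222 in the matching knockout, 0 and 0 in the PR domain control and 0.897 and 1.65 in the PR domain knockout. It was 3.89-fold higher in the Prdm16 knockout (adjusted p = 0.00035, limma). The PR domain control was at least 40.3-fold lower than the Prdm16 control, with its 0 fragments set at 3 over the group. The PR domain knockout held 3 fragments against 0, at the floor, so its call (adjusted p = 0.048) carries no fold, and it was lost in 14 of 22 alternatives, among them each of 7 fits with 1 library left out. Slc5a1, the apical sodium-glucose carrier, stayed at or under 4.96, and Fbp1, a gluconeogenic enzyme, at or under 2.03, with 0 in the 6 libraries outside the PR domain control.

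Both genes of lipid loading rose in both knockouts. Mttp, which loads lipid onto apolipoprotein B, had 1378 and 1401 in the Prdm16 control, 2813 and 2802 in the matching knockout, 226 and 235 in the PR domain control and 374 and 387 in the PR domain knockout. It rose 2.02-fold (adjusted p = 3.4e-14) and 1.65-fold (adjusted p = 1.5e-10). Soat2, which esterifies cholesterol for storage and lipoproteins, had 296 and 260, then 453 and 433, then 26.4 and 19.6, then 42.2 and 56.2, and rose 1.60-fold (adjusted p = 0.0014) and 2.09-fold (adjusted p = 9.8e-06, limma). The PR domain control was 6.00-fold lower for Mttp and 11.7-fold lower for Soat2. Of 18 other lipid absorption genes, 15 were tested. In the Prdm16 knockout 9 were higher and 2 lower (median log2 change 0.32), against 18.0% and 21.1% of all loci. In the PR domain knockout 6 were higher and 0 lower (median 0.23), against 8.48% and 10.7%. The lipoprotein receptor Scarb1 rose in both (0.67, adjusted p = 5.4e-10, and 0.33, adjusted p = 0.00022). P4hb, the other subunit of the microsomal transfer complex, also rose in both (0.32, adjusted p = 1.4e-08, and 0.13, adjusted p = 0.010), as did the widely expressed esterifying enzyme Soat1 (0.30, adjusted p = 2.7e-05, and 0.23, adjusted p = 0.0012). The fatty acid carrier Cd36 fell in the Prdm16 knockout (-1.31, adjusted p = 1.0e-08) and did not pass in the PR domain knockout (0.08, adjusted p = 0.76). The droplet protein Plin2 rose in the PR domain knockout (0.31, adjusted p = 5.7e-05) and did not pass in the Prdm16 knockout (0.10, adjusted p = 0.15, limma).

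The 2 digestive zymogens parted. Pga5, a pepsinogen, had 209 and 223 in the Prdm16 control, 55.8 and 46.2 in the matching knockout, 0 and 0 in the PR domain control and 9.87 and 4.14 in the PR domain knockout. It was 4.19-fold lower in the Prdm16 knockout (adjusted p = 5.7e-05, limma), the largest fall among these genes there. In the PR domain knockout it was called higher (adjusted p = 7.5e-07), with 16 fragments against 0, at least 4.49-fold. The PR domain control was at least 141-fold lower than the Prdm16 control. Pgc, the other pepsinogen, had 12.7 and 16.9, then 84.4 and 106, then 0 and 0, then 1.79 and 0. It rose 6.08-fold in the Prdm16 knockout (adjusted p = 0.00038), and the PR domain knockout held 2 fragments against 0, which gives no fold. Its PR domain control was at least 9.74-fold lower than the Prdm16 control.

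Both lysosomal proteases rose in both knockouts. Lgmn (legumain, an asparaginyl endopeptidase) had 2531 and 2611 in the Prdm16 control, 4490 and 4445 in the matching knockout, 1355 and 1239 in the PR domain control and 1883 and 1921 in the PR domain knockout. It rose 1.74-fold (adjusted p = 1.5e-14) and 1.47-fold (adjusted p = 1.1e-10). Ctsh (cathepsin H, an aminopeptidase) had 1589 and 1717, then 3288 and 3170, then 169 and 146, then 228 and 286, and rose 1.95-fold (adjusted p = 7.8e-11) and 1.62-fold (adjusted p = 1.2e-07, limma). Macrophages express Lgmn, Ctsh and Dab2 as well. Their 13 markers, Csf1r, C1qa and Adgre1 among them, moved with both knockouts. In the Prdm16 knockout 12 were higher, against 18.0% of all loci, and in the PR domain knockout all 13, against 8.48%. Their summed level was 2130 to 2254 in the Prdm16 control, 4695 to 4800 in the Prdm16 knockout, 5996 to 6168 in the PR domain control and 11430 to 11547 in the PR domain knockout. The part of these cells in the rise of the 3 genes was not tested. Between the control sets all 13 markers were higher in the PR domain control, against 16.3% of all loci, while Lgmn, Ctsh and Dab2 were lower there.

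The last 3 genes are all X-linked. S100g, the calcium buffer calbindin-D9k, had 945 and 1110, then 1865 and 1890, then 98.4 and 83.6, then 117 and 134, and rose 1.83-fold (adjusted p = 7.4e-09) and 1.37-fold (adjusted p = 0.00044). Gpc3, a membrane heparan sulfate proteoglycan, was the most abundant of the 34 per transcript length, from 438 to 796 FPKM. In normalised fragments it had 9521 and 9639, then 14622 and 14640, then 8065 and 8096, then 9711 and 9725, and rose 1.53-fold (adjusted p = 3.1e-16) and 1.20-fold (adjusted p = 5.9e-08). It was the gene with the smallest called difference between the control sets, 1.19-fold lower in the PR domain control. Trap1a, a tumour rejection antigen gene, had 77.4 and 63.0, then 308 and 344, then 6.08 and 5.16, then 0 and 2.48. It rose 4.61-fold in the Prdm16 knockout (adjusted p = 3.2e-05, limma). In the PR domain knockout it was called lower (adjusted p = 0.00074) on 3 fragments against 11, a ratio of 0.229 with a 95% interval of 0.0411 to 0.869, and this call was lost with edgeR and DESeq2, on FPKM and with the 4 libraries of the pair alone (adjusted p up to 0.19 over 22 alternatives).

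The 2 knockout effects were compared by the test of their difference. It called 12 of the 31 genes with the Prdm16 effect the higher, against 8.6% of all loci, and 4 with it the lower, against 7.81%. Amn, Slc2a2, Pga5, Pgc and Trap1a were under 10 in all PR domain libraries. Without them, 11 of 26 genes were called with the Prdm16 effect the higher, Cdhr2 still among them, and 3 with it the lower. Among the 31 genes, the widest gaps were those of Cdhr2, Trap1a, Rhox5 and Pdzk1 on the first side and Pga5 on the second. Of these, Cdhr2, Trap1a and Pga5 passed the filter only through the Prdm16 libraries. Foxa1, Amot and Vil1 were the others on the second side, while Prox1, Cited1, Cubn, Dab2, Mttp, Lgmn, S100g and Gpc3 completed the first. For Cubn the difference was 0.44 ± 0.14 (SE, adjusted p = 0.022). It missed the threshold without PR domain control replicate 2 (0.24), PR domain knockout replicate 2 (0.25), Prdm16 control replicate 1 (0.40), Prdm16 control replicate 2 (0.49) or Prdm16 knockout replicate 2 (0.43). The difference of Prox1, 0.53, missed it without any 1 of 6 libraries (all but Prdm16 knockout replicate 1 and PR domain knockout replicate 1), at 0.45 to 0.56. That of Cited1, 0.99, missed it without PR domain knockout replicate 1 (0.60), PR domain control replicate 1 (0.64), Prdm16 knockout replicate 1 (0.90) or either Prdm16 control (0.99 and 0.99). For S100g, 0.42, it missed without Prdm16 control replicate 1 or PR domain control replicate 1 (0.30 and 0.30), PR domain knockout replicate 1 (0.32) or either Prdm16 knockout library (0.43 and 0.41). For Mttp, 0.29, it missed without Prdm16 control replicate 1, either Prdm16 knockout library or PR domain control replicate 2, at 0.27 to 0.30. That of Lgmn, 0.24, missed without Prdm16 control replicate 1 (0.22) or PR domain control replicate 1 (0.18). Amn, Pgc and Ctsh passed in some of these fits: Amn without PR domain control replicate 1 (1.41), Pgc without PR domain knockout replicate 1 (2.60), and Ctsh without PR domain control replicate 2 (0.38) or PR domain knockout replicate 2 (0.43). For the other 15 genes the 2 effects did not differ past the threshold, which does not show that they were alike.

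**Figure D3:**
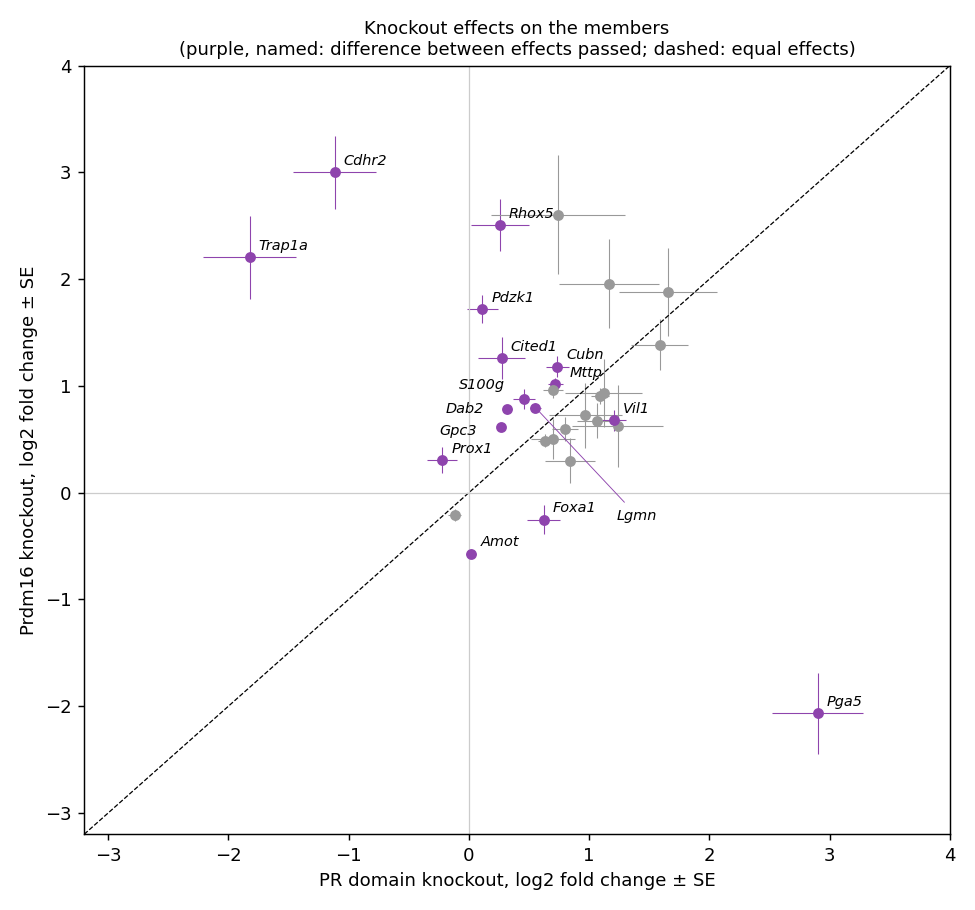
Log2 fold change in the PR domain knockout (horizontal) and the Prdm16 knockout (vertical) for the 31 genes tested, with standard errors. Named purple points are the 16 genes whose effects differed. Cdhr2 and Trap1a lie at the upper left and Pga5 at the lower right, and the dashed line marks equal effects.

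Other endoderm transcription factors did not move as a block. Of 25 listed, 18 were tested. In the Prdm16 knockout 6 were higher and 3 lower (median log2 change 0.10), against 18.0% and 21.1% of all loci. In the PR domain knockout 4 were higher and 5 lower (median -0.06), against 8.48% and 10.7%. Gata4 and Gata6, zinc finger factors of primitive endoderm, rose in both knockouts: Gata4 by 0.71 (adjusted p = 3.1e-13) and 0.36 (adjusted p = 6.0e-07), Gata6 by 0.68 (adjusted p = 6.8e-13) and 0.19 (adjusted p = 0.0034). Eomes, a T-box factor of early endoderm and mesoderm, fell in both (-1.98, adjusted p = 6.6e-05, and -1.58, adjusted p = 0.0019). Lhx1, a LIM homeobox factor of anterior visceral endoderm, did so too (-1.86, adjusted p = 0.00024, and -2.72, adjusted p = 2.4e-06). Sox17, an endoderm factor, fell in the PR domain knockout (-0.99, adjusted p = 1.9e-05) and did not pass in the Prdm16 knockout (0.02, adjusted p = 0.95, limma).

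Markers of the cell types that share these genes were read beside them. Over all loci, 18.0% were called higher and 21.1% lower in the Prdm16 knockout, and 8.48% and 10.7% in the PR domain knockout. The 9 secreted visceral endoderm proteins summed to 44952 to 47010 in the Prdm16 control, 94042 to 94352 in the Prdm16 knockout, 10102 to 10501 in the PR domain control and 18288 to 18844 in the PR domain knockout, the same order of groups as in Cubn and Mttp. Definitive endoderm markers went differently, at 1200 to 1288, 455 to 485, 280 to 333 and 181 to 219, with 6 of 8 tested lower in the Prdm16 knockout and 3 lower in the PR domain knockout. The 11 parietal endoderm markers summed to 30379 to 34227, with 3 higher and 3 lower in the Prdm16 knockout and 3 higher and 4 lower in the PR domain one. Hepatocyte markers summed to 109 to 112, 195 to 217, 75.0 to 78.4 and 137 to 147 in the 4 groups. They were higher in each knockout than in its control. Unlike for Cubn and Mttp, the PR domain knockout stood above the Prdm16 control. Between the control sets 1 of 4 tested was lower, against 16.7% of all loci. Of the 4 tested, 2 were higher and 0 lower in each knockout, and Tdo2 rose in both (1.06, adjusted p = 1.8e-05, and 0.88, adjusted p = 0.00044, limma). Kidney tubule markers summed to 147 to 165, 109 to 125, 258 to 283 and 154 to 174, with 1 of 4 tested lower in each knockout. Gut epithelium markers, Epcam among them, summed to 1943 to 1944, 2197 to 2225, 1242 to 1286 and 1338.5 to 1368 in the 4 groups. That is the group order of Cubn and Mttp, without overlap. Of 8 tested, 3 were higher and 2 lower in the Prdm16 knockout, and 2 higher and 1 lower in the PR domain knockout. Cdh17, Muc2 and Gpa33 were under 10 in every library. Trophoblast markers summed to 647 to 1438 with Prl2c2 at 0, and Hand1 made up most of that sum in every library. Of 5 tested, 1 was higher in the Prdm16 knockout, Hand1 (log2 change 0.57). Lower there were 3, Tfap2c (-2.82), Rhox6 (-1.87) and Rhox9 (-2.87). In the PR domain knockout 0 were higher and 1 was lower, and all 5 were lower in the PR domain control than in the Prdm16 control. Lymphatic markers, which Prox1 shares, summed to 516 to 790 with Ccl21a at 0. Floor plate and neural markers summed to 2402 to 2511, 1565 to 1586, 2698 to 2733 and 2041 to 2044 in the 4 groups. Of 10 neural markers tested, 8 were lower in the Prdm16 knockout, 4 were lower in the PR domain knockout, and 0 were higher in either. The part of any of these cells in the results was not tested.

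**Figure D4:**
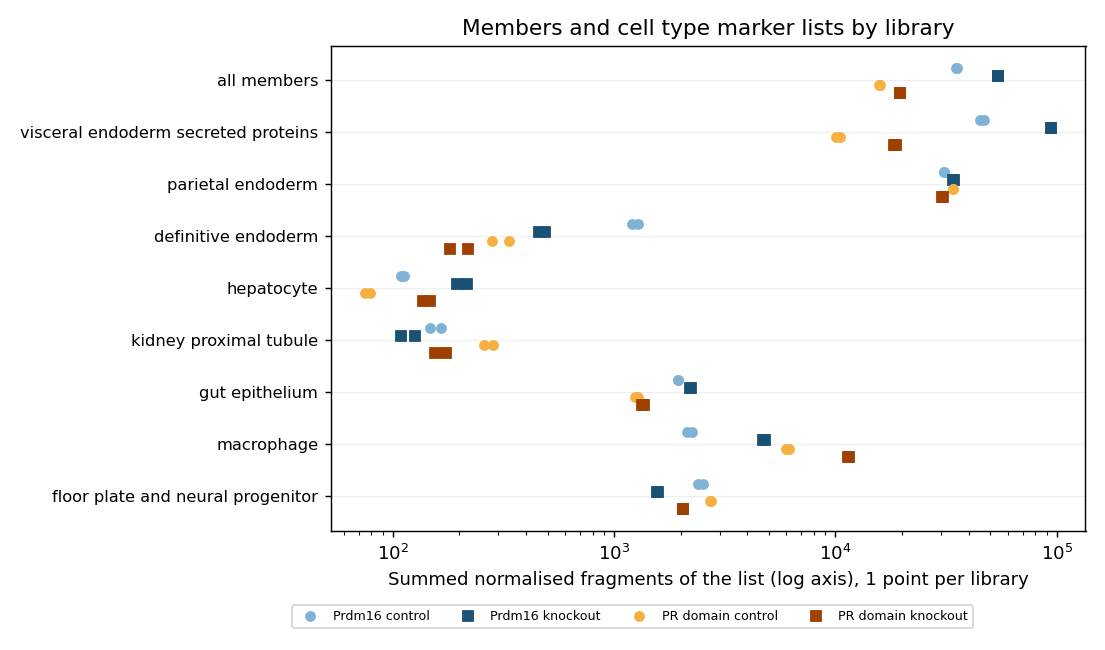
Summed normalised fragments (log axis) of the 34 genes and of 8 marker lists, 1 point per library. The secreted visceral endoderm list spans 10102 to 94352 in the order of groups seen for Cubn, while the macrophage list is highest in the PR domain knockout, at 11430 to 11547.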

How the data were processed

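Fragments were aligned and counted by the authors with TopHat2 2.1.1 and Cufflinks 2.2.1 on mm10, per the submitters' processing notes, with the annotation release and strand setting not given in the sources used here. Reads of genes overlapping on opposite strands therefore cannot be told apart, which concerns Prox1, Cubn, Dab2, Vil1, Pdzk1, Muc13, Dpp4 and Mttp. With Onecut1, which overlaps Gm20649 on the same strand, 9 of the 34 genes share exon sequence with another gene. The deposited signal values are fragments per locus divided by 1 size factor per library. All of the low values, on which each factor was fitted, were whole fragments within 0.1, and higher values were not checked. The deposited FPKM values served for comparing levels between genes and as an alternative. Loci without a name took 1.88% to 2.53% of fragments and were left out. Loci with at least 10 in at least 2 libraries were fitted with limma 3.58.1 (R 4.3.3) on log2(value + 1), with all 4 group means in one model and 4 residual degrees of freedom, and p-values were adjusted over all loci by Benjamini-Hochberg. The spread of each locus was drawn towards a trend over all loci, with 25.4 prior degrees of freedom beside the 4 residual ones. The p-values thus rest mostly on the shared spread. The script was tested on simulated data. Intervals are exact 95% intervals for counting error only. Bounds set 0 fragments at 3 over a group and leave out the counting error of the other group. Alternatives were other scalings, edgeR 4.0.16, DESeq2 1.42.0, limma-voom, FPKM, pseudocounts of 0.5 and 5, no filter or a filter at 50, the 4 libraries of a pair alone, a replicate block and each library left out. The members and lists were chosen with earlier results of these data known. All members were described, and from each pathway list the 3 genes with the smallest adjusted p in each knockout were named. Gene positions are from GENCODE M21 (GRCm38).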

Additional observations from a re-analysis of the deposited data

Results flagged for a closer look

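For 16 of the 31 genes the effect of the Prdm16 knockout and that of the PR domain knockout, each against its own control, differed by the test of the difference itself (limma, adjusted over all loci). Values are the Prdm16 effect minus the PR domain effect on the log2 scale. The gap was 4.12 for Cdhr2 and 4.03 for Trap1a, genes that were called higher in the first knockout and lower, on few fragments, in the second. It was -4.97 for Pga5, which was lower in the first and higher in the second. This value depends on the 1 added to each value, since the PR domain control held 0 fragments. Cdhr2, Trap1a and Pga5 passed the filter only through the Prdm16 libraries. Homeobox gene Rhox5 (2.25), scaffold Pdzk1 (1.61) and coactivator Cited1 (0.99) had the larger rise in the Prdm16 knockout. So had Prox1 (0.53), Dab2 (0.46), Cubn (0.44), S100g (0.42), Gpc3 (0.34), Mttp (0.29) and Lgmn (0.24). The effect was the lower one in the Prdm16 knockout for Foxa1 (-0.88), Amot (-0.59) and Vil1 (-0.53). Amot, Cited1, Rhox5, S100g, Gpc3 and Trap1a are X-linked.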

How the results depend on the processing

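Of 124 gene results, 96 were called, and 0 of these changed direction in an alternative; of the 28 not called, 11 changed sign in at least 1. Of the 96, 54 were called alike in every alternative that could be run for them (up to 22), while the others lost the call in at least 1. Log2(FPKM + 1) cost the most calls, 41, against 19 for the DESeq2 Wald test, 15 without a filter, 6 for edgeR and 5 for limma-voom, and the cause was not tested. On FPKM the PR domain knockout had 5 genes higher in place of 22 and 0 lower in place of 2, and the difference between knockouts 6 higher in place of 12 and 1 lower in place of 4. The count lower in the PR domain knockout was 0 with edgeR, DESeq2 or the 4 libraries of the pair alone, and 1 with limma-voom, a pseudocount of 5 or no filter. The higher differences numbered 7 with DESeq2 and 7 with no filter. The single gene higher between control sets, Prox1, was lost (0 genes) with total-fragment scaling, DESeq2, FPKM, a pseudocount of 5 and the replicate block. The Prox1 call was also lost with no filter. With 1 library left out, the counts ran from 1 to 2 for genes lower in the PR domain knockout, 6 to 11 for higher differences and 0 to 1 for Prox1 between control sets, with 6 differences without Prdm16 control replicate 1. The median difference between the knockout effects, 0.23 over the 31 genes, was -0.13 with edgeR, -0.09 with DESeq2, -0.07 with limma-voom and -0.09 with a pseudocount of 0.5, and -0.12 over the 26 genes left without Amn, Slc2a2, Pga5, Pgc and Trap1a. Of the difference calls over all loci 52.4% were higher, and 37.0% with total-fragment scaling.

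Replicate numbers did not pair the libraries: deviations of same-numbered libraries correlated at -0.15 to 0.11 between groups. The replicate block left 23 genes higher in the Prdm16 knockout, against 24, and lost 2 of 124 results, both of Prox1. Swapping the numbers of the Prdm16 knockout libraries, an alternative chosen after seeing the data, kept all 124. Depth limits Amn, Cdhr2, Gjb1, Slc2a2, Pga5, Pgc and Trap1a in the PR domain libraries, where groups held 0 to 23 fragments.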
